A study of Mus musculus with 9 samples.

Results

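The colony-stimulating factors and their receptors were followed on 9 arrays of CD11b+ cells sorted from mouse spleen. The family was taken as every probe set whose gene symbol in the platform annotation was exactly Csf1, Csf1r, Csf2ra, Csf2rb, Csf3 or Csf3r. This gave 9 of 12488 probe sets: 1 each for Csf1, Csf2ra, Csf2rb and Csf3, 2 for Csf1r and 3 for Csf3r. A further 1 probe set listed with both Csf2rb2 and Csf2rb was left out, since a signal there could come from either gene.

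The study set tumor-bearing mice against tumor-free mice and freshly sorted cells against cultured ones, on Affymetrix MG-U74Av2 arrays with 3 arrays in each of 3 groups. All mice were female and 8 to 12 weeks old, and all cells were CD11b+ splenocytes. The 24 h group held cells of tumor-bearing mice kept for 24 h in complete medium, the 0 h group held cells of tumor-bearing mice without culture, and the tumor-free group held uncultured cells of mice without a tumor. The labels used here give no name for the tumor or the strain, and no tumor-free cells were cultured, so culture and tumor cannot be told apart between the 24 h and the tumor-free group. Whether the replicates of a group are separate mice is not stated in the labels, and p-values therefore measure only the spread between these arrays, which may be technical.

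Colony-stimulating factors are secreted proteins that keep myeloid precursors alive and drive them to divide and mature. Csf1 (M-CSF) acts through the receptor tyrosine kinase Csf1r and maintains monocytes and macrophages. Csf3 (G-CSF) acts through Csf3r, which pairs with itself and signals through Janus kinases, and it expands and releases neutrophils. The GM-CSF receptor joins a ligand-specific alpha chain, Csf2ra, to the shared beta chain, Csf2rb, which also serves the IL-3 and IL-5 receptors. Csf2, the gene of GM-CSF itself, belongs to the related genes described further on.

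PU.1, encoded by Spi1, is a transcription factor of myeloid cells known to act on the promoters of CSF receptor genes through purine-rich boxes. Promoters of 3 of the 6 genes (Csf1, Csf2ra and Csf3r) were taken from a RefSeq table of GRCm38.p6, as 250 bases before to 50 after the gene's start. Csf1r was left out of this search, and no promoter was found for Csf2rb and Csf3. They were searched on both strands for GAGGAA, a core of such boxes. The sequences of the 2 receptor genes that held it are shown 5′ to 3′, since Csf3r is the receptor whose signal was called and Csf2ra held more than 1 match; capitals mark the matches.
Csf3r, chr4:126024409-126024708, plus strand: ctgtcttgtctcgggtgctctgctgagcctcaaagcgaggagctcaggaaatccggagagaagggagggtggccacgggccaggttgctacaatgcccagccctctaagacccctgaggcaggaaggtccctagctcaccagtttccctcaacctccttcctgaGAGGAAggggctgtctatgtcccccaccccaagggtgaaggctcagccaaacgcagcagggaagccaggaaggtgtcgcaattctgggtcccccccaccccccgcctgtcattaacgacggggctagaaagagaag
Csf2ra, chr19:61228369-61228668, minus strand: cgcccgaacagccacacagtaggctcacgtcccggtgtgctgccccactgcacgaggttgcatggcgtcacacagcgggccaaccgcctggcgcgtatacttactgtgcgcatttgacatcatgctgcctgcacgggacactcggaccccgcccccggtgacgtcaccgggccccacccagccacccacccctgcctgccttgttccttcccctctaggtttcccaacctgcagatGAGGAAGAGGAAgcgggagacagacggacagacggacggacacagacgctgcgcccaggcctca
The Csf3r promoter held 1 match, beginning 86 bases before the start. The Csf2ra promoter held 2 adjacent matches that did not overlap, at 14 and 8 bases before the start, and the Csf1 promoter held 0 in this window. Of 32851 promoters in the table, 9289 (28.3%) held GAGGAA, so a match is a description of these letters and not a binding site. No binding was measured here.

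The values are MAS5 signals, a linear measure of hybridized RNA per probe set on arrays scaled to a common level. Array medians lay between 33.4 and 42.8. In each group 1 array stood apart: 24 h replicate 3 correlated with its group at r = 0.850 to 0.869, 0 h replicate 3 at 0.874 to 0.900 and tumor-free replicate 1 at 0.823 to 0.827, while the other two of each group correlated at 0.929, 0.949 and 0.957. These are correlations over probe sets, which are not independent replicates. Tumor-free replicate 1 correlated more closely with an array of another group (0.860) than with its own, and its beta-actin 3′/5′ ratio, a measure of RNA integrity, was 2.57 against 0.994 and 1.19 on the other tumor-free arrays. For replicates 1 to 3 the ratio was 2.27, 2.36 and 1.16 in the 24 h group and 1.59, 1.58 and 1.35 in the 0 h group. A high ratio was therefore not particular to the arrays that stood apart. The 3 arrays that stood apart also differed from their groups in the bacterial spike-in controls, whose mean log2 signal was 9.25 on 24 h replicate 3 (10.50 and 10.49 on its pair), 8.99 on 0 h replicate 3 (9.91 and 9.86) and 10.36 on tumor-free replicate 1 (9.77 and 9.65). Results on the members are given with these arrays and then without all 3. Since they were left out for lying far from their group, the spread that remains is smaller by construction. Without them, both tumor-free arrays had lower spike-in signals (9.77 and 9.65) than every 0 h (9.91 and 9.86) and 24 h array (10.50 and 10.49). In that setting a difference from tumor-free cells cannot be told apart from this technical difference. The same holds there between 24 h and 0 h cells, since spike-in signals were higher on both 24 h arrays. The actin ratios also differed there, at 2.27 and 2.36 in 24 h cells against 0.994 and 1.19 in tumor-free cells. In 0 h cells they were 1.59 and 1.58.

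All 9 probe sets passed the filter on dim signals that kept 8695 probe sets for testing. Fold changes are differences of log2(signal + 7.83), and a probe set was called at an adjusted p below 0.05 in limma with Benjamini-Hochberg adjustment over the 8695. In the 0 h group against the tumor-free group 2 of the 9 were called, 1 higher and 1 lower, where 1.90% of all probe sets tested were called, and 3 of the 9 passed an unadjusted p of 0.05. In the 24 h group against the 0 h group 1 was called, lower, against a background of 2.69%, and 2 passed unadjusted. In the 24 h group against the tumor-free group 1 was called, lower, against a background of 1.23%, and 4 passed unadjusted. Over all 8695, 1449, 1420 and 1226 passed an unadjusted p of 0.05 in the 3 comparisons, the background for unadjusted counts here and below. Without the 3 arrays that stood apart, 2141, 1368 and 1813 of all probe sets tested were called. These are the background for the counts given in that setting. Groups of 3 did not overlap for 4 of the 9 probe sets in the first comparison (background 22.4%), for 3 in the second (22.2%) and for 4 in the last (18.5%). The 3 comparisons share arrays, so their calls are not independent of each other. The calls were made by Csf3 and by 1 probe set of its receptor, Csf3r.

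**Figure D1:**
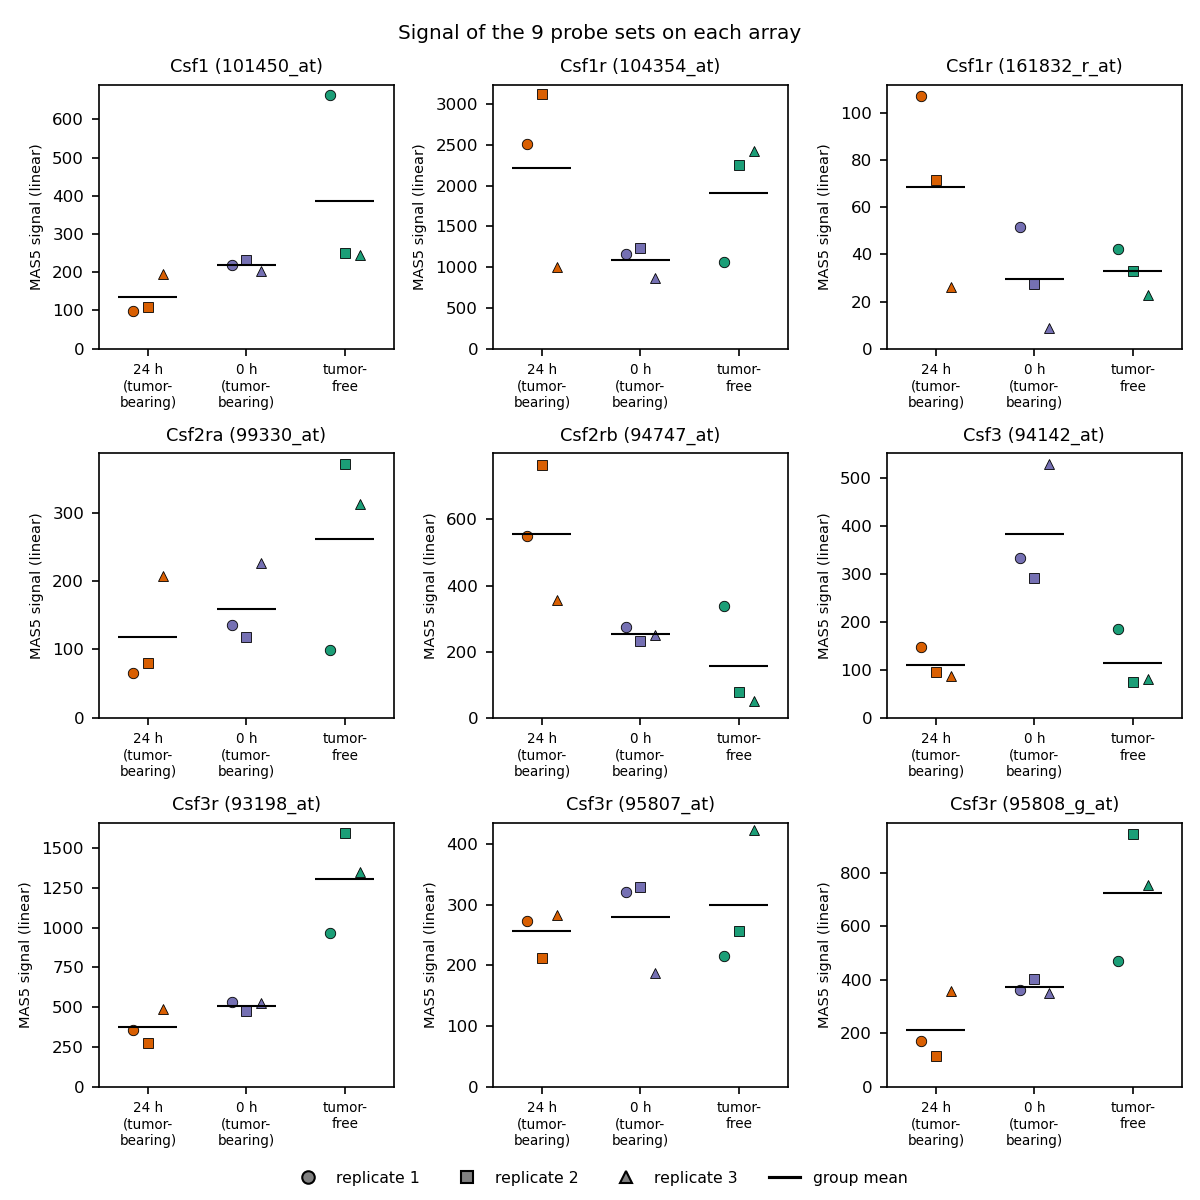
MAS5 signal (linear, y axis) of each of the 9 probe sets on each array, by group; points are arrays, their shape the replicate, and the line is the mean of 3. Csf3 lay at 291 to 529 on all 0 h arrays and at or below 186 elsewhere, while Csf3r 93198_at lay at or above 965 on all tumor-free arrays and at or below 530 elsewhere.

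Csf3, the ligand of the neutrophil axis, was higher in the 0 h group than in either other group. The signal of its probe set 94142_at was 146.72, 95.12 and 87.95 in the 24 h group, 334.12, 291.09 and 529.34 in the 0 h group, and 186.24, 74.92 and 81.38 in the tumor-free group. Every 0 h array exceeded every array of the other groups, and the 24 h and tumor-free arrays overlapped. The mean was 110 ± 32.1 in the 24 h group, 385 ± 127 in the 0 h group and 114 ± 62.5 in the tumor-free group (SD, n = 3 each).

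Against tumor-free cells, Csf3 rose in 0 h cells by 1.75 ± 0.37 on the log2 scale (SE; 95% interval 0.93 to 2.58; adjusted p = 0.0413), or 3.37-fold. After culture it fell by 1.72 ± 0.37 in 24 h cells relative to 0 h cells (95% interval of the log2 change -2.55 to -0.90; adjusted p = 0.0356), or 3.30-fold. Cultured cells did not differ detectably from tumor-free cells, with a log2 difference of 0.03 ± 0.37 and an interval of -0.79 to 0.85 (adjusted p = 0.983).

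Without the 3 arrays that stood apart, the Csf3 differences were 1.90 (0 h over tumor-free, adjusted p = 0.00147), -1.34 (24 h over 0 h, adjusted p = 0.00863) and 0.55 (24 h over tumor-free, adjusted p = 0.146). Leaving out single arrays kept the size of the first between 1.50 and 2.15 but lost its call without tumor-free replicate 2 or 3, any of the 0 h replicates or 24 h replicate 2 (highest adjusted p 0.186, without tumor-free replicate 2), after median centring (adjusted p = 0.0610) and without the filter (adjusted p = 0.0518). The second lost its call without any 1 of the 0 h or 24 h arrays (highest adjusted p 0.146, without 24 h replicate 2).

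Among the arrays of each spike-in class, split at the median spike-in signal, the 0 h minus tumor-free difference of Csf3 was 0.72 in the high class (2 arrays against 1) and 2.64 in the low class (1 against 2), with no test. The 24 h minus 0 h difference was -1.34 in the high class (2 arrays against 2) and -2.49 in the low one (1 against 1), the same direction in both. For 24 h minus 0 h, here and below, the high class holds just the arrays left once those that stood apart are dropped. The low class holds 1 array that stood apart from each group. Like signs in the classes are therefore no added check on that setting. With the class as a block the differences were 1.66 (adjusted p = 0.0470) and -1.72 (adjusted p = 0.0230).

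An exocrine pancreas gene list moved with Csf3 across the groups. The summed signal of its 11 genes on the array was 575 to 1180 in the 24 h group, 13153 to 22476 in the 0 h group and 613 to 892 in the tumor-free group. Within the 0 h group, replicate 3 had the highest Csf3 signal and the lowest pancreas sum (13153, against 22476 and 21160). Of the 11 genes, 10 were called higher in 0 h against tumor-free cells and 10 lower in 24 h against 0 h cells. No gene of that list was below the offset on every array. The part of RNA from pancreas in the Csf3 signal was not tested.

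Csf3r, the G-CSF receptor of neutrophils and their precursors, was lower in both tumor-bearing groups than in tumor-free cells by 1 of its 3 probe sets, whereas its ligand was higher in the 0 h group. Probe set 93198_at had signals of 354.59, 278.03 and 491.28 in the 24 h group, 530.39, 473.36 and 527.75 in the 0 h group, and 964.91, 1596.04 and 1350.67 in the tumor-free group. Every tumor-free array exceeded every tumor-bearing one, and 24 h replicate 3 lay among the 0 h arrays. The means were 375 ± 108 in 24 h cells, 510.5 ± 32.2 in 0 h cells and 1304 ± 318 in tumor-free cells (SD, n = 3 each).

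Csf3r 93198_at fell by 1.31 ± 0.28 in 0 h cells relative to tumor-free cells (log2 interval -1.93 to -0.70; adjusted p = 0.0413), or 2.48-fold. In 24 h cells it fell by 1.79 ± 0.28 relative to tumor-free cells (interval -2.40 to -1.17; adjusted p = 0.0133), or 3.45-fold. The step between the 24 h and 0 h groups was -0.47 ± 0.28 and was not called (interval -1.09 to 0.14; adjusted p = 0.450). The interval therefore allows anything between a loss of 1.09 and a gain of 0.14 in culture.

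The probe set 95808_g_at gave 169.60, 113.44 and 358.40 in the 24 h group, 360.28, 402.49 and 351.67 in the 0 h group, and 471.19, 946.47 and 753.94 in the tumor-free group. It ran in the same order, and neither tumor-bearing group overlapped the tumor-free one, but it was not called: the log2 difference was -0.89 ± 0.39 for 0 h over tumor-free cells (adjusted p = 0.282), -0.93 ± 0.39 for 24 h over 0 h cells (adjusted p = 0.262) and -1.82 ± 0.39 for 24 h over tumor-free cells (adjusted p = 0.0550). The remaining probe set, 95807_at, gave 273.28, 211.70 and 282.32 in 24 h cells, 321.37, 329.36 and 187.09 in 0 h cells, and 216.14, 256.57 and 423.46 in tumor-free cells. Its groups overlapped in all 3 comparisons, with differences of -0.08 ± 0.32, -0.09 ± 0.32 and -0.17 ± 0.32 (adjusted p at least 0.862). The platform annotation gives the same design sequence for 95807_at and 95808_g_at and another for 93198_at. It does not say which transcripts each probe set reads, and the difference between probe sets was not tested.

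Without the 3 arrays that stood apart, 93198_at differed by -1.54 (0 h over tumor-free, adjusted p = 0.00107), -0.66 (24 h over 0 h, adjusted p = 0.0450) and -2.20 (24 h over tumor-free, adjusted p = 0.000181), and 95808_g_at by -1.13, -1.41 and -2.54 (adjusted p 0.00963, 0.00532 and 0.000230). Leaving out 1 array, 93198_at in 0 h over tumor-free cells was no longer called without tumor-free replicate 2 (-1.15, adjusted p = 0.202) or 3, any 0 h replicate, or 24 h replicate 1 or 2, and after median centring (adjusted p = 0.0661). In 24 h over tumor-free cells it was not called without tumor-free replicate 2 or 3 or 24 h replicate 1 or 2 (highest adjusted p 0.0814, without tumor-free replicate 3). The direction of 93198_at was the same within both spike-in classes, at -0.93 (high) and -1.46 (low) for 0 h minus tumor-free arrays and -1.60 and -1.56 for 24 h minus tumor-free arrays, with no test. For 95808_g_at these were -0.30 and -1.25 for 0 h minus tumor-free arrays, -1.71 and -1.22 for 24 h minus tumor-free arrays, and -1.41 and 0.03 for 24 h minus 0 h arrays. The call of 95808_g_at was gained in 24 h over tumor-free cells without tumor-free replicate 1 (-2.10, adjusted p = 0.0112) or 24 h replicate 3 (-2.26, adjusted p = 0.00818), and in 24 h over 0 h cells without 24 h replicate 3 (-1.37, adjusted p = 0.0421).

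The neutrophil marker list did not follow the group order of Csf3r. Its summed signal over 16 genes was 16874 to 53070 in the 24 h group, 61159 to 73259 in the 0 h group and 42221 to 50737 in the tumor-free group. The sum leaned on S100a8, its brightest gene, and hid differences within the tumor-free group. On tumor-free replicate 1, Camp was 150 against 8809 and 10458 on its group, and Ngp 228 against 8234 and 9160. Mmp8 (1640 against 141 and 218) and Il1r2 (5866 against 148 and 142) were instead higher there. In 0 h over tumor-free cells 14 of the 16 genes had a positive log2 change (median 1.76, against 0.01 over all probe sets tested) and 8 passed an unadjusted p of 0.05, but the 1 gene called was lower: Cxcr2, the chemokine receptor of mature neutrophils (-1.72 ± 0.36; adjusted p = 0.0385). In 24 h over 0 h cells 15 of the 16 were negative and Mpo and Prtn3, granule enzymes of neutrophil precursors, were called lower. Tumor-free replicate 1 decided the size of the first of these: without it 12 of the 16 were positive with a median of 0.62, and 5 were called (4 higher, 1 lower). With all 3 apart arrays left out the median was 0.52 over the 15 genes that passed the filter there. Settings that lost the Cxcr2 call included quantile normalization, median centring, no filter, and leaving out tumor-free replicate 2 or 3. The Mpo and Prtn3 calls were lost after median centring and without the filter. With the replicate and the spike-in block, 3 and 5 genes were called in 0 h over tumor-free cells. In 24 h over 0 h cells 4 were called with each block. In bulk RNA, fewer cells of a type and less RNA per cell cannot be told apart, and the part of cell makeup in the Csf3r difference was not tested.

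**Figure D2:**
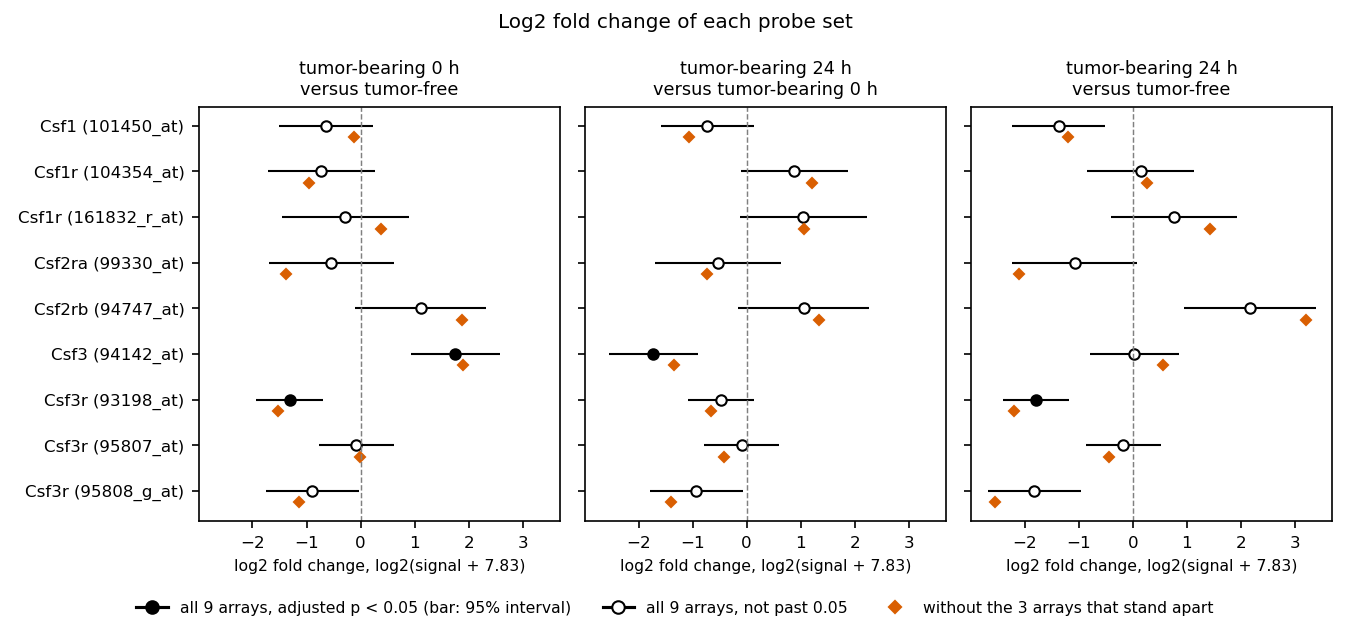
Log2 fold change (x axis) of each probe set in the 3 comparisons; circles are the fit over 9 arrays with 95% intervals (filled: adjusted p below 0.05), and diamonds are the values without the 3 arrays that stood apart. Csf3 is filled on opposite sides of 0 in the first and second panels, and Csf3r 93198_at is filled left of 0 in the first and last.

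Csf1, the ligand of the macrophage axis, was not called in any comparison, and its groups did not overlap in any of them. The signals of 101450_at were 97.84, 108.65 and 196.23 in 24 h cells, 217.71, 232.20 and 203.49 in 0 h cells, and 662.78, 249.51 and 244.32 in tumor-free cells. The order of the groups was 24 h, 0 h, tumor-free from low to high, and the highest value by far was that of tumor-free replicate 1. The differences were -0.64 ± 0.39 for 0 h over tumor-free cells (interval -1.51 to 0.22; adjusted p = 0.422), -0.73 ± 0.39 for 24 h over 0 h cells (-1.59 to 0.14; adjusted p = 0.400) and -1.37 ± 0.39 for 24 h over tumor-free cells (-2.24 to -0.51; adjusted p = 0.137).

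The distance of Csf1 between 0 h and tumor-free cells rested largely on that array: without tumor-free replicate 1 it was -0.18 (adjusted p = 0.767), and without all 3 apart arrays -0.13 (adjusted p = 0.610). In 24 h cells, by contrast, Csf1 without the 3 arrays differed by -1.07 from 0 h cells (adjusted p = 0.00660) and by -1.20 from tumor-free cells (adjusted p = 0.00258). Within the high and the low spike-in class it differed by -1.53 and -0.27 (0 h minus tumor-free), -1.07 and -0.05 (24 h minus 0 h) and -2.60 and -0.32 (24 h minus tumor-free), negative in each, with no test. Fibroblasts and endothelial cells are known sources of Csf1. The summed signal of their 12-gene list was 755 to 866 in 24 h cells, 810 to 1435 in 0 h cells and 713 to 1961 in tumor-free cells, and it was highest on tumor-free replicate 1, the array with the highest Csf1. The part of such cells in the Csf1 signal was not tested.

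Csf1r, the receptor kinase of monocytes and macrophages, was not called in any comparison. Its probe set 104354_at gave 2514.29, 3128.35 and 999.31 in the 24 h group, 1162.94, 1240.26 and 872.59 in the 0 h group, and 1058.90, 2248.28 and 2421.56 in the tumor-free group. The groups overlapped throughout, since the arrays that stood apart, 24 h replicate 3 and tumor-free replicate 1, lay with the 0 h arrays. The differences were -0.73 ± 0.45 for 0 h over tumor-free cells (adjusted p = 0.426), 0.88 ± 0.45 for 24 h over 0 h cells (adjusted p = 0.368) and 0.15 ± 0.45 for 24 h over tumor-free cells (-0.84 to 1.14; adjusted p = 0.922).

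Without the 3 arrays, Csf1r 104354_at was lower in 0 h than in tumor-free cells (-0.95, adjusted p = 0.00470) and higher in 24 h than in 0 h cells (1.22, adjusted p = 0.00250), with 0.26 between 24 h and tumor-free cells (adjusted p = 0.285). Within the spike-in classes the 0 h minus tumor-free difference was 0.18 in the high class and -1.41 in the low class, so that its sign differed between them. The other probe set, 161832_r_at, was dim, with 107.09, 71.66 and 26.32 in 24 h cells, 51.67, 27.56 and 8.81 in 0 h cells, and 42.30, 33.09 and 22.97 in tumor-free cells. Its differences were -0.28 ± 0.53, 1.05 ± 0.53 and 0.77 ± 0.53 in the same order of comparisons (adjusted p 0.815, 0.362 and 0.561), with overlapping groups. Without the 3 arrays the 0 h over tumor-free difference was 0.37, of the opposite sign to 104354_at, and the 24 h over tumor-free one was called at 1.43 (adjusted p = 0.0258). Whether its lowest signals exceeded background is unknown, since no detection calls were used here.

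The macrophage marker sum, like the mean Csf1r signal, was lowest in the 0 h group. The summed signal over 16 genes was 9633 to 12928 in 24 h cells, 5884 to 7483 in 0 h cells and 8244 to 19732 in tumor-free cells, and on tumor-free replicate 1 it was 8244 against 18785 and 19732 on its group. The sum leaned on Lyz2, its brightest gene, at 4769 to 8172 in 24 h cells, 3365 to 5082 in 0 h cells and 3450 to 4931 in tumor-free cells. C1qa, C1qb, C1qc and Mrc1 instead had their lowest mean in 24 h cells, so the order of the sum was not theirs. Of 14 tested, 5 fell in 0 h relative to tumor-free cells: the complement genes C1qa and C1qb, the mannose receptor Mrc1, the heme oxygenase Hmox1 and the actin-binding Aif1. In 24 h over tumor-free cells, where Csf1r was not called, 12 of the 14 were negative and C1qa, C1qb, C1qc and Mrc1 were called lower; Mrc1 also fell in 24 h relative to 0 h cells while Hmox1 rose, so the list did not move as one. Leaving out tumor-free replicate 1, 11 were lower in 0 h and 8 in 24 h cells than in tumor-free cells. Leaving out all 3 arrays, 12 were lower in 0 h cells and 10 lower and 1 higher in 24 h cells. In 0 h against tumor-free cells, 0 were called without tumor-free replicate 2 or 3, and 3 after median centring. In 24 h against tumor-free cells, 1 was called without tumor-free replicate 2. The sum of 7 monocyte genes was likewise 1815 on tumor-free replicate 1, against 5038 and 4861 on the other tumor-free arrays, with 861 to 1606 in 24 h cells and 1877 to 2096 in 0 h cells. The part of macrophage and monocyte content in the Csf1r signal was not tested.

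**Figure D3:**
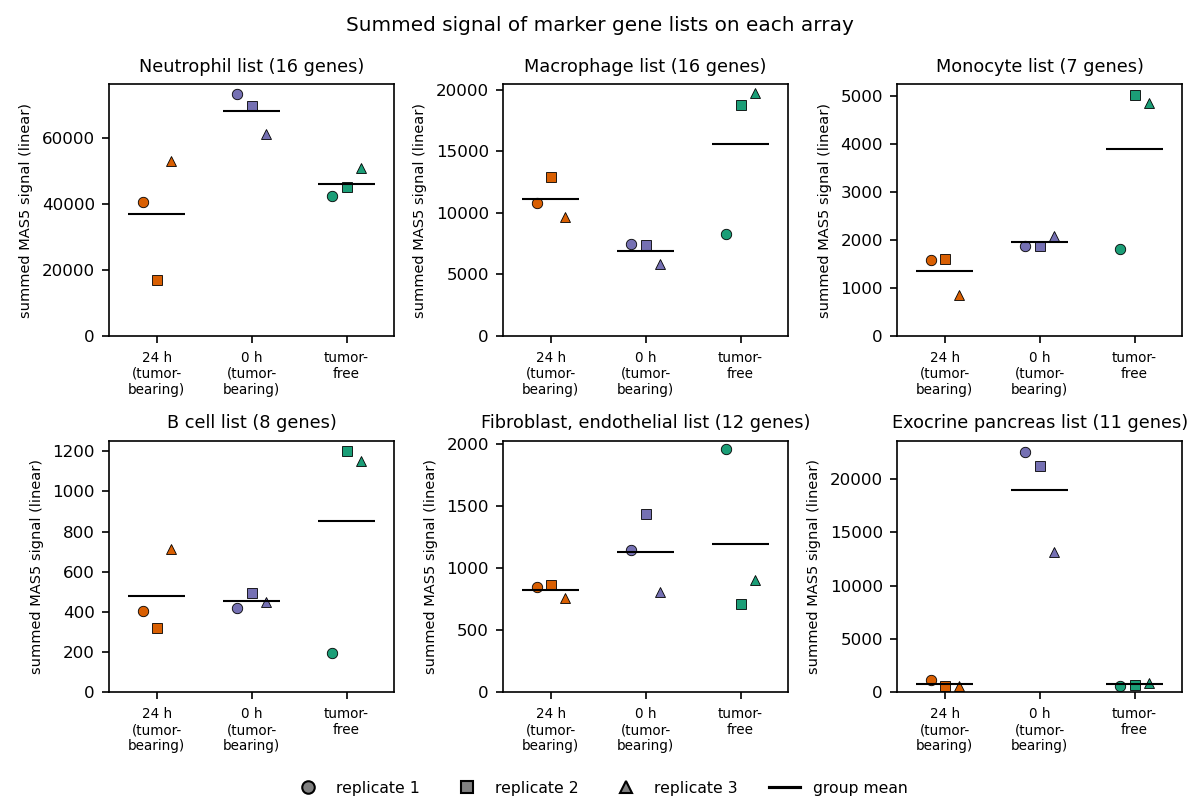
Summed MAS5 signal (linear, y axis) of 6 marker gene lists on each array, by group; points are arrays and the line is the mean of 3. The exocrine pancreas sum is at least 13153 on the 0 h arrays and at most 1180 on the others, and tumor-free replicate 1 lies below its group in the macrophage, monocyte and B cell sums and above it in the fibroblast and endothelial sum.

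The chains of the GM-CSF receptor lay in opposite orders across the groups, with no call for either. Csf2rb, the shared beta chain, had signals of 548.57, 763.70 and 356.80 in 24 h cells, 274.46, 230.81 and 250.64 in 0 h cells, and 338.89, 78.21 and 50.06 in tumor-free cells. Every 24 h array exceeded every other array, and tumor-free replicate 1 exceeded the 0 h arrays while the other tumor-free arrays lay below them. The differences were 1.11 ± 0.55 for 0 h over tumor-free cells (interval -0.11 to 2.33; adjusted p = 0.332), 1.06 ± 0.55 for 24 h over 0 h cells (-0.16 to 2.27; adjusted p = 0.380) and 2.17 ± 0.55 for 24 h over tumor-free cells (0.95 to 3.38; adjusted p = 0.0934).

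The value of Csf2rb against tumor-free cells depended on 1 array. Without tumor-free replicate 1 the differences were 1.88 for 0 h cells (adjusted p = 0.00676) and 2.93 for 24 h cells (adjusted p = 0.000847), both called. Without all 3 arrays they were 1.88 for 0 h over tumor-free cells, 1.34 for 24 h over 0 h cells and 3.21 for 24 h over tumor-free cells (adjusted p 0.00201, 0.0111 and 0.000151). Within the spike-in classes, 0 h minus tumor-free arrays gave -0.42 in the high class, whose only tumor-free array is replicate 1, and 1.87 in the low class. The 24 h minus 0 h values were 1.34 and 0.50 and the 24 h minus tumor-free values 0.92 and 2.37, positive in both classes.

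Csf2rb2, the mouse-specific beta chain of the IL-3 receptor and a near-identical copy of Csf2rb, gave 688.50, 978.02 and 610.14 in 24 h cells, 547.91, 455.16 and 508.58 in 0 h cells, and 508.22, 103.72 and 129.94 in tumor-free cells on probe set 103210_at. Its differences were 1.36 ± 0.48, 0.56 ± 0.48 and 1.91 ± 0.48 in the same order (adjusted p 0.191, 0.644 and 0.0921), and without tumor-free replicate 1 those against tumor-free cells were 2.04 and 2.60 (adjusted p 0.00127 and 0.000481). With all 3 apart arrays left out, Csf2rb2 differed by 2.03, 0.71 and 2.74 (adjusted p 0.000725, 0.0684 and 0.000165). Transcripts of the pair may hybridize to each other's probes, so the signals of Csf2rb and Csf2rb2 cannot be told apart with certainty.

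Csf2ra, the GM-CSF-specific alpha chain, gave 65.54, 80.91 and 207.99 in 24 h cells, 135.92, 117.94 and 226.29 in 0 h cells, and 99.31, 371.88 and 312.89 in tumor-free cells. All groups overlapped, because the arrays that stood apart lay at the other end of their groups from the rest. Its differences were -0.54 ± 0.52 for 0 h over tumor-free cells (adjusted p = 0.618), -0.53 ± 0.52 for 24 h over 0 h cells (adjusted p = 0.695) and -1.07 ± 0.52 for 24 h over tumor-free cells (interval -2.23 to 0.09; adjusted p = 0.400). Without the 3 arrays they were -1.38, -0.74 and -2.11 (adjusted p 0.00318, 0.0495 and 0.000373). Within the high and the low spike-in class the 0 h minus tumor-free difference was 0.33 and -0.58, of opposite sign, while the 24 h minus 0 h (-0.74 and -0.12) and 24 h minus tumor-free differences (-0.41 and -0.69) were negative in both.

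**Figure D4:**
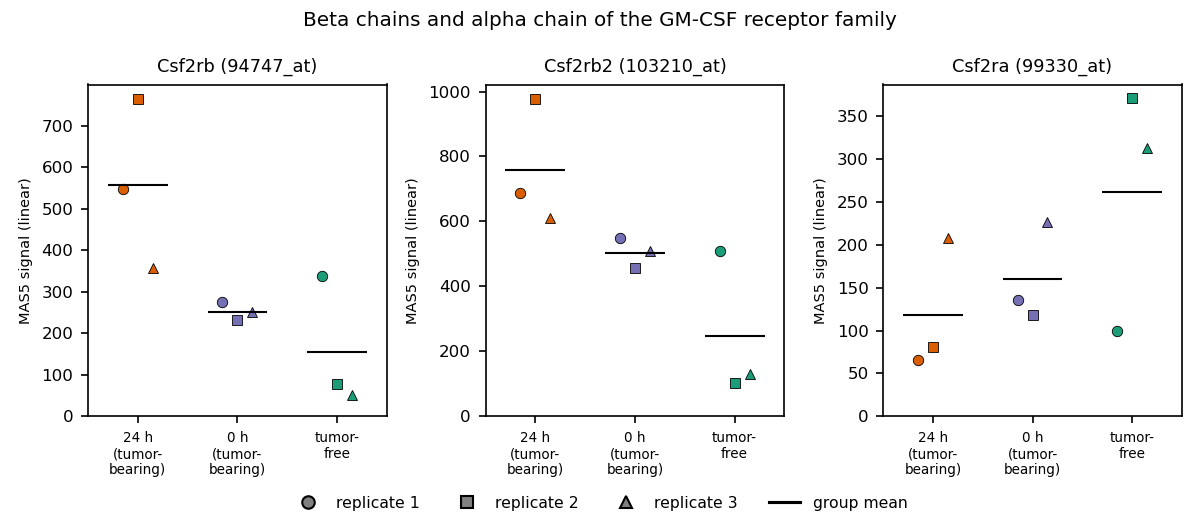
MAS5 signal (linear, y axis) of Csf2rb, its near-identical copy Csf2rb2 and Csf2ra on each array, by group; points are arrays and the line is the mean of 3. Tumor-free replicate 1 lies above both other tumor-free arrays for Csf2rb and Csf2rb2 (338.89 and 508.22) and below them for Csf2ra (99.31).

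Related cytokines and receptors were read from a list of 13 genes, of which 12 were on the array and 8 passed the filter. In limma 0 of the 8 were called in 0 h over tumor-free cells (4 at an unadjusted p under 0.05) and 0 in 24 h over 0 h cells (0 unadjusted); without the 3 arrays that stood apart these were 5 (1 higher, 4 lower) and 0. The 24 h over tumor-free comparison called 1, Kit, the receptor of stem cell factor on early progenitors and mast cells. Kit had 31.23, 49.01 and 26.73 in 24 h cells, 52.16, 46.41 and 53.62 in 0 h cells, and 79.75, 130.67 and 172.66 in tumor-free cells, so that every tumor-free array was highest.

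Kit fell by 1.61 ± 0.32 in 24 h relative to tumor-free cells (adjusted p = 0.0406), but it kept its call only in 8 of 17 alternatives and lost it without any 1 array except tumor-free replicate 1 (highest adjusted p 0.195, without tumor-free replicate 3). Kit differed by -1.75 without the 3 arrays (adjusted p = 0.00372), where 3 of the 8 genes were called. Against tumor-free cells, the uncultured 0 h cells had uncalled Kit differences of -1.15 ± 0.32 (adjusted p = 0.104). Il6ra, the IL-6 receptor alpha chain, differed by -1.26 ± 0.35 (adjusted p = 0.103) in that comparison. Il6st, the gp130 chain that the IL-6 family shares, differed by -1.44 ± 0.38 on 94345_at (adjusted p = 0.0890), whereas its other probe set 98349_at gave -0.32 ± 0.33 (adjusted p = 0.654).

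Flt3, the receptor of Flt3 ligand on dendritic cell precursors, gave opposite signs on its probe sets in 24 h over tumor-free cells (-0.93 ± 0.45 on 95295_s_at and 0.56 ± 0.30 on 95296_r_at), neither called. Il3, Il3ra and Il5 had mean signals of 13.9 to 45.8 in every group and uncalled differences. Csf2 was below the filter, with 6.23, 4.64 and 31.43 in 24 h cells, 15.14, 19.51 and 13.57 in 0 h cells, and 25.23, 3.11 and 2.35 in tumor-free cells. Il5ra and Flt3l were below it as well, and so was Kitl, which gave 4.83, 8.05 and 11.02 in 24 h cells and 19.21, 20.95 and 24.87 in tumor-free cells, without overlap. No test was run on these genes.

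Downstream of the receptors, 27 of 37 listed signal transducers (cytoplasmic transducers of these receptors and their inhibitors) were tested, each on its brightest probe set, and in limma 0 were called there in any of the 3 comparisons; a second probe set of Socs3 was called, as described with the CSF-responsive genes. At an unadjusted p under 0.05 they numbered 5 in 0 h over tumor-free cells, 5 in 24 h over 0 h cells and 7 in 24 h over tumor-free cells. Over all 8695 probe sets these numbers were 1449, 1420 and 1226. Their median changes were -0.04, -0.03 and -0.16, against 0.01, 0.02 and 0.05 over all probe sets tested. Without the 3 arrays that stood apart, 8, 5 and 11 were called, where 2141, 1368 and 1813 of all probe sets tested were called.

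Transcription factors of myeloid differentiation were represented by 16 tested genes. In 0 h over tumor-free cells 3 fell: Egr1, an immediate early factor that macrophages induce (-2.69 ± 0.41; adjusted p = 0.00697), Cebpd, a C/EBP factor of inflammatory responses (-1.87 ± 0.30; adjusted p = 0.00897), and Klf4, a factor of monocyte differentiation (-1.65 ± 0.27; adjusted p = 0.0112). Egr1 on 98579_at stood at 177.60, 119.40 and 103.28 in 24 h cells, 183.93, 179.11 and 177.11 in 0 h cells, and 2517.91, 949.90 and 723.80 in tumor-free cells. Every tumor-free array was well above every tumor-bearing one. A second, dimmer Egr1 probe set, 161802_i_at, gave 0.97 ± 0.69 in 0 h over tumor-free cells (adjusted p = 0.497).

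Egr1 (-3.13 ± 0.41; adjusted p = 0.00657) and Klf4 (-2.42 ± 0.27; adjusted p = 0.00320) fell in 24 h relative to tumor-free cells. Between 24 h and 0 h cells 1 rose: Irf8, a factor of monocyte and dendritic cell fate, by 1.87 ± 0.38 (adjusted p = 0.0253), with 434.41, 953.65 and 346.84 in 24 h cells against 172.65, 156.93 and 95.36 in 0 h cells. Spi1, which encodes PU.1, was not called in any comparison, with differences of -0.13 ± 0.28, -0.44 ± 0.28 and -0.57 ± 0.28 (adjusted p 0.836, 0.489 and 0.395). Calls of Cebpd (0 h replicate 1 or 2 left out, adjusted p up to 0.0680), Klf4 in 0 h over tumor-free cells (tumor-free replicate 2 or 3 or 0 h replicate 1 or 2, up to 0.0721) and Irf8 (any 0 h replicate or 24 h replicate 1 or 2, up to 0.0860) were lost without single arrays. Egr1 in both comparisons, and Klf4 in 24 h over tumor-free cells, kept theirs in all 17 alternatives. Without the 3 arrays, 7, 6 and 10 were called of the 15 genes that passed the filter there. There Egr1 differed by -2.14, Cebpd by -1.68 and Klf4 by -1.94 in 0 h over tumor-free cells, Egr1 by -2.45 and Klf4 by -2.36 in 24 h over tumor-free cells, and Irf8 by 1.92 in 24 h over 0 h cells, all called.

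Of 27 genes known to respond to CSFs, 22 were tested. The gene called was Ccnd1, the cyclin D1 that Csf1 induces in macrophages, on 94232_at. It stood at 47.73, 44.78 and 56.27 in 24 h cells, 85.64, 77.45 and 34.22 in 0 h cells, and 237.34, 187.06 and 186.91 in tumor-free cells, with the tumor-free arrays above all others. Ccnd1 fell in 0 h (-1.60 ± 0.32; adjusted p = 0.0304) and in 24 h cells (-1.88 ± 0.32; adjusted p = 0.0192) relative to tumor-free cells, and another probe set, 94231_at, gave 0.30 ± 0.53 and -0.22 ± 0.53 (adjusted p 0.805 and 0.902).

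The first Ccnd1 call was lost without tumor-free replicate 2 or 3, 0 h replicate 1 or 2 or 24 h replicate 2 (adjusted p up to 0.116) and the second without tumor-free replicate 2 or 3 or 24 h replicate 1 or 2 (up to 0.0885). Ccnd1 without the 3 arrays differed by -1.13 in 0 h and -1.85 in 24 h cells from tumor-free cells, both called. Between 24 h and 0 h cells limma called 0 of the 22 genes on their brightest probe set, with 6 at an unadjusted p under 0.05 (1420 of all 8695 probe sets). The medians of the list were 0.30, -0.66 and -0.52. Without the 3 arrays 10, 12 and 14 of the 22 were called, where 2141, 1368 and 1813 of all probe sets tested were called. Socs3, the feedback inhibitor of Csf3r signalling, had 291.04, 284.60 and 216.68 in 24 h cells against 432.94, 422.74 and 1168.41 in 0 h cells, a difference of -1.17 ± 0.44 on 162206_f_at that was not called (adjusted p = 0.205). Its other probe set, 92232_at, was called: it gave 265.78, 268.76 and 126.17 in 24 h cells against 682.95, 693.68 and 1238.90 in 0 h cells, with no overlap, and fell by 1.97 ± 0.39 (adjusted p = 0.0222). That call was lost without any 0 h replicate or 24 h replicate 2 (adjusted p up to 0.0728) and held without the 3 arrays (-1.34, adjusted p = 0.00322). On both probe sets the highest Socs3 signal, like that of Csf3, was that of 0 h replicate 3.

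Genes with a profile most like each member were found by the root mean square difference of mean-centred log2 values over the 9 arrays, among 6365 genes with 1 symbol; the smaller the number, the more alike. Csf3 lay closest to Lifr (0.305), Sipa1l2 (0.317) and Dusp16 (0.340), against its own spread of 0.922 around its mean. Csf3r 93198_at lay closest to Nop10 (0.184), Serpinb6a (0.258) and St6gal1 (0.268), and 95808_g_at to Fam107b (0.263), Nop10 (0.330) and Selenoh (0.332). These 2 Csf3r probe sets lay 0.304 apart.

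The nearest profiles to Csf1 were Hspa5 (0.187), Gcnt1 (0.241) and Nop58 (0.274), and those to Csf1r 104354_at were Snx21 (0.179), Cnot6l (0.192) and Rgs10 (0.222). Csf2ra lay closest to Myh9 (0.148), Jpt1 (0.216) and Cd82 (0.225). For Csf2rb the first gene of 6365 was Csf2rb2 (0.319), ahead of F7 (0.382) and Slc7a11 (0.396). The 2 Csf1r probe sets lay 0.659 apart, against own spreads around their means of 0.653 (104354_at) and 0.771 (161832_r_at). Arrays that stood apart shape these distances for all genes alike, so they are given as descriptions, with no p.

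The sort was checked on a list of 7 genes of integrin alpha M (CD11b), its partner chain and other myeloid or leukocyte surface proteins, all on the array. Itgam, the CD11b gene itself, had signals of 363.42, 332.59 and 954.12 in 24 h cells, 391.80, 413.51 and 584.77 in 0 h cells, and 373.26, 243.83 and 256.05 in tumor-free cells, above the offset on every array. The offset is the 20th percentile of all values, so this is a low bar and says little on the purity of the sort. The list's summed signal was 9736 to 12602 in 24 h cells, 12379 to 13721 in 0 h cells and 7652 to 11304 in tumor-free cells. Its brightest gene was Cd14, at 2891 to 7946, 7766 to 8194 and 1287 to 7644 in the same order. Fcgr3 of this list was dim, at 14.36 to 33.41, 13.25 to 45.18 and 5.15 to 18.44. T cell sums were 132 to 281, 235 to 280 and 277 to 400, and B cell sums 317 to 711, 417 to 494 and 197 to 1202, in the same order of groups. Sums of NK cell genes ran at 147 to 521, 106 to 204 and 126 to 250, of dendritic cell genes at 944 to 1499, 696 to 1100 and 787 to 1725, and of erythroid genes at 905 to 7136, 4978 to 6523 and 708 to 2368. These sums are over different probe sets and are compared only between arrays, not between lists.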

How the data were processed

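CD11b+ splenocytes of 3 groups were profiled on 9 1-color arrays. The deposited intensity values are linear MAS5 signals, per the submitters' processing notes; the MAS5 version is not given in the sources used here. Trimmed means of 100.061 to 100.075 show that the authors' deposited signals share a common scaling, and they were used as deposited. Their number limits the precision, and between 16.6% and 23.6% of an array's values lay below the offset.

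Signals were transformed to log2(signal + 7.83), the 20th percentile of all values; fold changes of dim genes are understated. The 66 control probe sets and the lowest 30% by mean were left out, which kept 8695. In limma 3.58.1 (R 4.3.3) a linear model gave each group its mean over all 9 arrays (6 residual degrees of freedom, intensity trend, two-sided), and was tested on simulated data. Tables were handled in Python 3.11.15 with pandas 2.3.3.

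The platform annotation gave 1 symbol for 10855 probe sets, several for 396 and none for 1237. List genes are represented by their brightest single-symbol probe set. All relatives and up to 4 called genes of other lists are named. Spi1, Socs3 (called on its second probe set only) and the markers Cxcr2, Mpo, Prtn3, C1qa, C1qb, C1qc, Mrc1, Hmox1, Aif1 and Fcgr3 were chosen after their values were seen. So were the markers Camp, Ngp, Mmp8 and Il1r2. Members, lists and tests were chosen with earlier results of these data known. Alternatives were quantile normalization, median centring, offsets at the 5th (2.11) and 40th percentile (24.74), no filter, replicate and spike-in blocks, and left-out arrays.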

Additional observations from a re-analysis of the deposited data

How the results depend on the processing

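Over 27 member results (9 probe sets in 3 comparisons) and 17 alternatives, 394 of 459 values kept their direction and their side of the threshold, 26 lost a call, 23 gained one and 16 changed sign. Every sign change was in a difference that was not called: Csf3 in 24 h over tumor-free cells (median centring -0.039, spike-in block -0.062, without tumor-free replicate 2 or 3 -0.19 and -0.14, without 24 h replicate 1 -0.18, range without 1 array -0.19 to 0.42), Csf1r 104354_at there (without tumor-free replicate 1 -0.23, without 24 h replicate 1 or 2 -0.02 and -0.18, range -0.23 to 0.64) and Csf3r 95807_at there (without tumor-free replicate 3 0.10, range -0.37 to 0.10). In 0 h over tumor-free cells they were Csf1r 161832_r_at (0.37 without the 3 arrays that stood apart, 0.20 without 0 h replicate 3, range without 1 array -0.71 to 0.20) and Csf3r 95807_at (0.20 without tumor-free replicate 3, 0.18 without 0 h replicate 3, range -0.28 to 0.20), and in 24 h over 0 h cells Csf3r 95807_at (0.029 and 0.047 without 0 h replicate 1 or 2, 0.035 without 24 h replicate 2, range -0.35 to 0.047).

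The count of called member probe sets in 0 h over tumor-free cells was 0 after median centring (adjusted p 0.0610 for Csf3 and 0.0661 for Csf3r 93198_at), 1 without the filter (0.0518 for Csf3) and 6 without the 3 arrays. It was 7 in 24 h over 0 h cells without the 3 arrays. For 24 h over tumor-free cells it was 2 with the larger offset, 2 with the spike-in block, 2 with the replicate block and 6 without the 3 arrays. Leaving out 1 array gave 0 to 3, 0 to 1 and 0 to 3. Over all probe sets the counts were 277, 556 and 177 with the spike-in block, 2141, 1368 and 1813 without the 3 arrays, and 62 to 624, 74 to 489 and 21 to 529 without 1 array. The causes were not tested.

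Replicate numbers were not taken to pair arrays: deviations of same-numbered arrays correlated at 0.14, -0.20 and -0.02 (0 h with tumor-free), 0.17, 0.03 and 0.26 (24 h with 0 h) and 0.18, -0.09 and 0.13 (24 h with tumor-free). With the replicate number as a block 200, 258 and 144 probe sets were called, and 2, 1 and 2 members; Csf3r 95808_g_at gained a call in 24 h over tumor-free cells (-1.82, adjusted p = 0.0477).

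Array medians moved by up to 0.197 (quantile) and 0.200 (centring) on the log2 scale. The alternatives were applied to the list genes and marker lists after their values were seen. Signals near the offset, such as those of Csf2, carry little information on order.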
